A study of Mus musculus with 6 samples.

Results

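The IFI200 family (interferon-activated genes 200, also called the PYHIN or HIN-200 family) is a cluster of interferon-inducible mouse genes, of which 10 are described here out of 36528 gene identifiers measured. They are Aim2, Ifi203, Ifi204, Ifi205, Ifi206, Ifi207, Ifi208, Ifi209, Ifi211 and Mndal, and all 10 were found in the deposited tables. The members were chosen by name with their values in these same libraries already known, so their levels and fold changes are given as a description and no test of a member is offered. All 10 passed the filter on low counts, but Ifi208 passed only through the LPS-treated libraries.

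Most proteins of this family carry a pyrin domain, which binds other pyrin domains, and at least one HIN domain, which binds DNA. In macrophages, AIM2 senses DNA in the cytosol and joins the adaptor ASC (Pycard) and caspase-1 in an inflammasome that matures interleukin-1β and interleukin-18, while p204 (Ifi204) has been linked to DNA sensing ahead of STING. Many of the genes are switched on by type I interferon through transcription factors that bind interferon-stimulated response elements.

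Polyadenylated RNA was sequenced from cultured mouse microglia, the macrophages that reside in the brain. The groups were untreated wild-type microglia, untreated microglia labelled Loxp_untreated and described as Cop1 KO, and wild-type microglia treated with lipopolysaccharide (LPS), an outer-membrane glycolipid of bacteria that activates Toll-like receptor 4. Cop1 encodes a ubiquitin ligase. Each group had 2 libraries. No source used here gives the dose or duration of LPS, the promoter or vector behind the deletion, or the age and strain of the animals. Nothing says that the 2 libraries of a group came from separate cultures or animals, and the p-values reflect only their spread, which may be technical. No LPS-treated knockout was among the samples, and both comparisons with untreated cells share the same 2 untreated wild-type libraries.

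Library totals lay between 20568144 and 22553708 counts. Levels are given as nRPKM, the authors' reads per kilobase scaled for depth, and fold changes come from a single edgeR quasi-likelihood fit to counts of 15585 genes with TMM scaling, with a call at a Benjamini-Hochberg adjusted p below 0.05. Cop1 itself was at 1.61 and 1.46 nRPKM in untreated wild type, 1.115 and 1.28 in Cop1 KO, and 3.31 and 3.86 with LPS. It fell by 0.49 on the log2 scale in Cop1 KO (SE 0.11, edgeR adjusted p = 0.00016), and this call is lost when nRPKM values are tested with limma in place of counts (log2 change -0.21, adjusted p = 0.075). Counts over the whole gene do not show whether the deleted part was transcribed. Markers of other cell types moved with the groups: the summed level of 10 astrocyte markers was 149 to 150 nRPKM in untreated wild type, 13.2 to 14.2 in Cop1 KO and 182 to 183 with LPS. The 8 neuron markers summed to 17.7 to 18 nRPKM, 0.817 to 0.875 and 25.4 to 26 in the same order. The 8 oligodendrocyte lineage markers summed to 43.5 to 44.4 nRPKM, 15.1 to 15.3 and 37.4 to 39.4. Fibroblast markers (6 genes) were higher in Cop1 KO, at 6.87 to 7.34 nRPKM, 18.2 to 18.6 and 10.7. Endothelial markers (5 genes) were at 5.26 to 5.32, 10.8 to 11 and 18.8 to 18.9 nRPKM, with Cldn5 at 0 throughout. The 10 microglia markers summed to 2167 to 2206, 3612 to 3648 and 1739 to 1811 nRPKM, and the defining lymphocyte markers Cd3e, Cd3g and Ncr1 were at 0 in all 6 libraries. In bulk RNA, fewer cells of a type and less RNA per cell cannot be told apart.

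The 10 genes lie within 682 kb of chromosome 1, from the start of Aim2 at 173349547 to the end of Ifi205 at 174031755 (GRCm38). Of these, 7 are transcribed from the minus strand and 3 (Aim2, Ifi208 and Ifi209) from the plus strand. Upstream sequences of 7 members are printed because the family moved in the same direction by very different amounts. Windows of 250 bases before the annotated transcript start were read from RefSeq (GRCm38.p6) and searched on both strands for the interferon-stimulated response element core (GAAA, any 2 bases, GAAA), the gamma-activated site TTCNNNGAA and the C/EBP core TTGCNNAA. Matches to the first are in capitals. Ifi205, Ifi211 and Ifi207 are shown as the members with the highest, a middle and the lowest LPS response among those with a match, Ifi206 for its high response in Cop1 KO, Mndal (the first of its 2 annotated starts) for a window nearly shared with Ifi203, and Ifi209 and Aim2 as members with no match.
Ifi205, chr1:174031756-174032005, minus strand: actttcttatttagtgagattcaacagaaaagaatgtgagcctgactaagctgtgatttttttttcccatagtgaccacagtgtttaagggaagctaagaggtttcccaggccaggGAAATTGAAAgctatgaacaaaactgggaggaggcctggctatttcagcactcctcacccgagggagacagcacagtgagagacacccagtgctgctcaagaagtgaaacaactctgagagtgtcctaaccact
Ifi211, chr1:173913047-173913296, minus strand: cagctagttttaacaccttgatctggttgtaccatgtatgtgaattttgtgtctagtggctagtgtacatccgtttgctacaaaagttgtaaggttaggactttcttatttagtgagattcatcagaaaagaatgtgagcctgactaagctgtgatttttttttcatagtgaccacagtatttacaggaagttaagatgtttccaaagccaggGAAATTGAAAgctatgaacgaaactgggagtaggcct
Ifi207, chr1:173741810-173742059, minus strand: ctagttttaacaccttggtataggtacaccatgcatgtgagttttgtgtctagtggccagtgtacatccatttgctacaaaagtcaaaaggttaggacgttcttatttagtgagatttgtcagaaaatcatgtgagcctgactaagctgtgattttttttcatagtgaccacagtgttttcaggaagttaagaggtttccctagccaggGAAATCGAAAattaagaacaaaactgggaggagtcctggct
Ifi206, chr1:173491319-173491568, minus strand: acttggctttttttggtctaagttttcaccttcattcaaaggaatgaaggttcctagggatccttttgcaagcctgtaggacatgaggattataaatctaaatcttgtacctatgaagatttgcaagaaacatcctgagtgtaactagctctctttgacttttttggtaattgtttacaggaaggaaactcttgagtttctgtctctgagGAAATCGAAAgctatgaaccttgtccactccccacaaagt
Mndal, chr1:173880188-173880437, minus strand: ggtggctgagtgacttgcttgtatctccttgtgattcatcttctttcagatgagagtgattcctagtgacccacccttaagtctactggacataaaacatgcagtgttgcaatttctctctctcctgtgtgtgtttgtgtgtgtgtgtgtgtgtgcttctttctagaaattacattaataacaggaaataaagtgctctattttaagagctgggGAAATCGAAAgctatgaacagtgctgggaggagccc
Ifi209, chr1:173630609-173630858, plus strand: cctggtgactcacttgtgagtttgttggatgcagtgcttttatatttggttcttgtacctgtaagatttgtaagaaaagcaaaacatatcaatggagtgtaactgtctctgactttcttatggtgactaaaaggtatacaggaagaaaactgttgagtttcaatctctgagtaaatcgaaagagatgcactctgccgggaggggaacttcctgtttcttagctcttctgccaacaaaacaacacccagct
Aim2, chr1:173420354-173420603, plus strand: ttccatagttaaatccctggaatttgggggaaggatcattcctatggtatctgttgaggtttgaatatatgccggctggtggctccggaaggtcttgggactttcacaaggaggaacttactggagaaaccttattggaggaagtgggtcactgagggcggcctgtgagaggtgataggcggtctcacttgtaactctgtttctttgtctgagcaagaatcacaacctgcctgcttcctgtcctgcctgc

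The response element core stood in the windows of 7 of the 9 members with a promoter in the table (Ifi203, Ifi205, Ifi206, Ifi207, Ifi208, Ifi211 and Mndal). Counted by window, 8 of the 11 member windows held it, against 978 of all 32851 windows of that length, or 2.98%. Ifi204 has no window there and was not searched. In 5 of the 7 genes the match read GAAATCGAAA, letters found in 13 of all 32851 windows (0.0396%). Of these 13 windows, 7 belong to the family itself, counting members and other genes of the cluster. Ifi211 and Ifi205 differ from it at a single base, C6T, counted from 1 at the first letter of the element. These 10 letters were singled out after the sequences had been seen.

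The element began within 60 bases of the annotated start in Ifi203 (35 bases upstream), Mndal (36), Ifi211 (37), Ifi206 (40), Ifi207 (41) and Ifi208 (58). These values are for the second start of Ifi203 and the first start of Mndal. The window of the first Ifi203 start held no match. In Ifi205 it began 134 bases upstream. The window of Ifi209 held TAAATCGAAA from 79 to 70 bases upstream, which differs from the exact element by G1T and so was not matched by the core. Read on the strand of the gene only, the closest stretch in the Aim2 window differed from the element at 4 of its 10 bases. The opposite strand was not compared in this way, and it holds a closer stretch (tttctttgtc as printed). The Aim2 window lies within the gene's annotated span, since the table uses a start inside it.

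No member window held the gamma-activated site, against 7.02% of all windows. The C/EBP core stood in 3 of the 11 member windows (Ifi206, Ifi208 and the second start of Mndal, not printed), against 9.56% of all windows. Its matches in Ifi206 and Ifi208 are the same letters in nearly the same sequence. No match overlapped one of another motif. A match describes letters only, and binding was not measured. Some members have nearly the same upstream sequence, though other genes lie between them on the chromosome. The windows of the first Mndal start and the second Ifi203 start shared 93.2% of their 250 bases in a global alignment. Those of Ifi206 and Ifi208 shared 92.4%, and those of Ifi207 and Ifi211 86.4%.

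**Figure D1:**
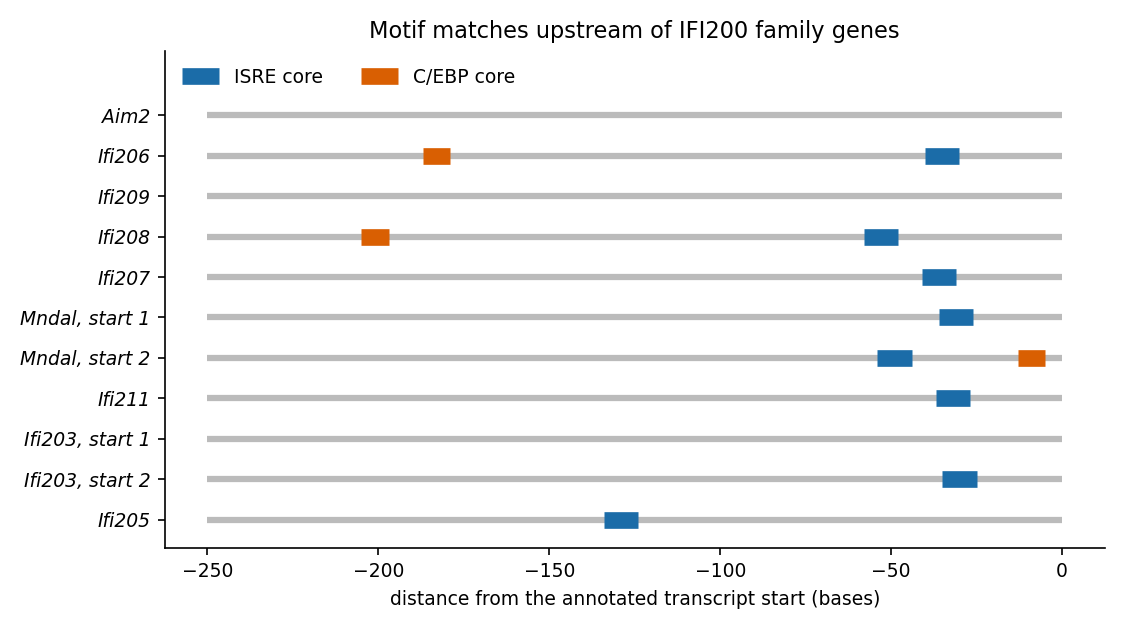
Motif matches in the 250 bases before the annotated starts of 9 members; the x axis is the distance from the start in bases, bars are matches to the interferon-stimulated response element (ISRE) core or the C/EBP core, and Mndal and Ifi203 have 2 annotated starts each. The response element lies 26 to 58 bases before the start in 6 genes and 125 to 134 bases before it in Ifi205, while Aim2, Ifi209 and the first start of Ifi203 show no match.

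The copies also limit how far reads can be assigned to a member, because the deposited counts are of uniquely aligned reads. Of the 50-base windows in the annotated transcripts, 99.3% were found in no other gene for Aim2 and 92.7% for Ifi207. The share was 83.6% for Ifi203, 75.9% for Mndal, 74.4% for Ifi206, 74% for Ifi208, 69.8% for Ifi204 and 66.3% for Ifi209. Ifi205 and Ifi211 were the least distinct, at 50.4% and 27.2%, and 44.7% of the windows of Ifi211 occur in Ifi205 as well. Levels of different members are therefore hard to compare, most so for Ifi211. Whether shared sequence also moved the change of a member between groups was not tested.

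In Cop1 KO microglia 9 of the 10 members were higher than in untreated wild type, and with LPS all 10 were. Of all genes tested, 58.4% were called in Cop1 KO (28.1% higher, 30.3% lower) and 73.7% with LPS (30.2% higher, 43.4% lower), and nothing is read from the members' counts beside these shares, since the members were picked from the same values. The median log2 fold change was 1.51 in Cop1 KO over the 9 members with a fold, and 4.87 with LPS over all 10 with Ifi208 set against a floor of 3 counts. Over all genes tested the medians were -0.01 and -0.18. Scaling by library size only lowered the LPS log2 changes (Aim2 from 2.10 to 1.54, Ifi207 from 1.96 to 1.40), and limma on log2(nRPKM + 1) lowered those of the scarce members (in Cop1 KO, Ifi205 from 2.94 to 1.88 and Ifi206 from 3.34 to 2.15), with no direction turned. Every member was lower in Cop1 KO than with LPS (median log2 difference -3.35), where 79.6% of all genes were called, 39.9% higher and 39.6% lower.

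Summed over the family, untreated wild-type libraries had 62.04 and 62.17 nRPKM, Cop1 KO had 161.4 and 176.1, and LPS had 1408 and 1470. As a share of all counts this was 0.0435% and 0.0436%, 0.088% and 0.0956%, and 0.459% and 0.482%. The 3 groups did not overlap on either scale. Separate groups were common with 2 libraries each. In CPM, Cop1 KO and untreated wild type were also apart for 14 of 15 genes of the inflammasome list and 9 of 11 of the partner list given below. The share of all genes with separate groups was not counted, so nothing is read from the separation of the members. Cop1 KO stood between the other groups and, in nRPKM, nearer to the untreated wild type.

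**Figure D2:**
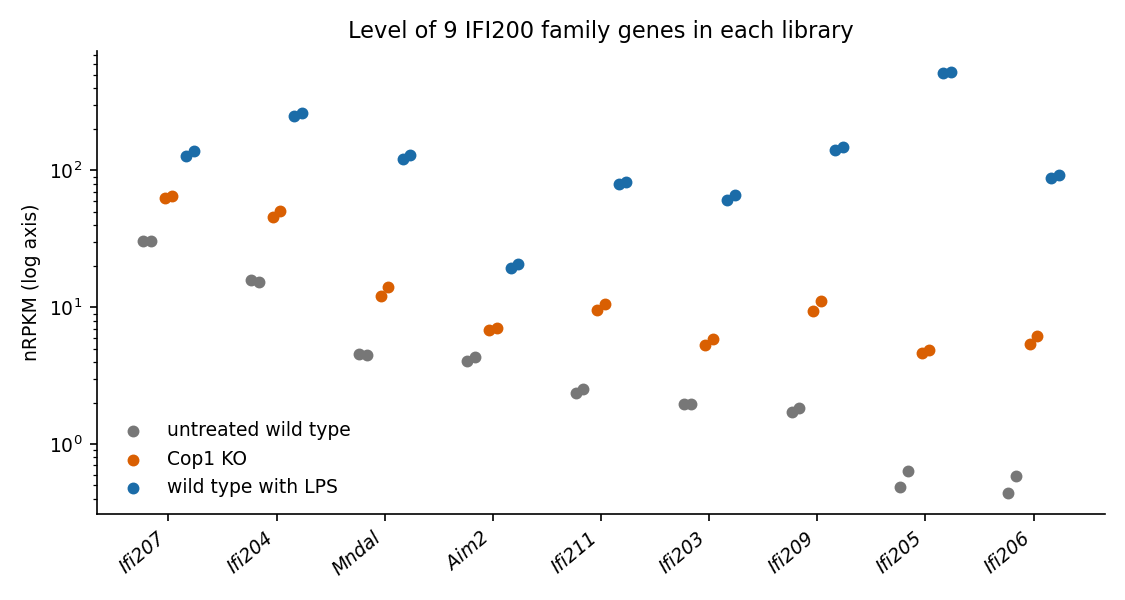
Level of 9 members in each of the 6 libraries, in nRPKM on a log axis; each point is a library. For every gene drawn the untreated wild-type points are lowest, the Cop1 KO points are between and the LPS points are highest, and Ifi208 is left out because it had 0 counts in 3 libraries.

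Aim2, the DNA sensor of the inflammasome, showed the smallest change of the family in Cop1 KO. Its level was 4.02 and 4.34 nRPKM in untreated wild type, 6.775 and 7.07 in Cop1 KO, and 19.4 and 20.7 with LPS. The groups did not overlap, and the mean CPM was 42.2 ± 2.24 without treatment, 63.9 ± 1.76 in the knockout and 181 ± 7.87 after LPS (SD, n = 2 each). The fitted log2 fold change was 0.60 (SE 0.05) in Cop1 KO and 2.10 (SE 0.05) with LPS. Another setting, added after the data were seen, scaled libraries to the summed counts of the 10 microglia markers instead of to the whole library. With it the Cop1 KO difference for Aim2 was near 0, at -0.03. Of the 9 members so scaled, Aim2 was the only one that was no longer higher in Cop1 KO.

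Ifi204, which encodes p204, was the second most abundant member in all 3 groups. It stood at 15.8 and 15.3 nRPKM in untreated wild type, 45.65 and 50.93 in Cop1 KO, and 250 and 264 with LPS. Its log2 fold change was 1.51 (SE 0.04) in Cop1 KO, a 2.84-fold rise, and 3.88 (SE 0.04) with LPS, a 14.8-fold rise. Under the microglia-marker scaling the Cop1 KO value was 0.87.

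Ifi207, which carries both domains of the family, was the most abundant member without LPS and had the lowest fitted LPS fold change, close to that of Aim2. Untreated wild-type libraries had 30.63 and 30.55 nRPKM, Cop1 KO libraries 62.4 and 65.5, and LPS libraries 127.5 and 139.5. All Cop1 KO values lay above all untreated ones and below all LPS ones. The log2 fold change was 0.93 (SE 0.04) in Cop1 KO and 1.96 (SE 0.04) with LPS, so Cop1 KO reached 49.1% of the LPS level, the highest share of any member. Scaling to the microglia markers left 0.30 in Cop1 KO.

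Mndal, a myeloid nuclear differentiation antigen-like gene, and Ifi203, on the far side of Ifi211 from it, moved by nearly the same amounts. Mndal was at 4.56 and 4.46 nRPKM in untreated wild type, 12.2 and 14.1 in Cop1 KO, and 121 and 129 with LPS. Ifi203 was at 1.96 in both untreated libraries, 5.28 and 5.84 in Cop1 KO, and 60.3 and 66.1 with LPS. Neither gene had overlapping groups. In log2 terms Mndal changed by 1.41 (SE 0.06) and 4.63 (SE 0.05) in Cop1 KO and LPS, and Ifi203 by 1.37 (SE 0.07) and 4.85 (SE 0.06). Their RefSeq spans do not overlap, but in GENCODE the annotated Mndal gene extends past Ifi211 to the start of Ifi203, where exons of the 2 genes share 37 bases on the same strand. This is 1.26% of the exonic length of Mndal and 0.733% of that of Ifi203.

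Ifi211 and Ifi209, formerly named Mnda and Pyhin1, were low in untreated cells. Ifi211 stood at 2.38 and 2.55 nRPKM in untreated wild type, 9.6 and 10.5 in Cop1 KO, and 80.1 and 82.8 with LPS. Ifi209 stood at 1.73 and 1.825 nRPKM, 9.44 and 11.15, and 141 and 148 in the same order. Both had separate groups, and Ifi209 rose more in each comparison. The log2 fold changes of Ifi211 were 1.90 (SE 0.08) in Cop1 KO and 4.88 (SE 0.07) with LPS. Those of Ifi209 were 2.40 (SE 0.08) and 6.18 (SE 0.07).

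Ifi206 had the largest fold change of the family in Cop1 KO. It had 62 and 88 counts in untreated wild type, 608 and 708 in Cop1 KO, and 7919 and 7692 with LPS. In nRPKM these were 0.44 and 0.587, 5.35 and 6.14, and 88.7 and 93.2. The Cop1 KO libraries were 10.2-fold higher than untreated wild type (log2 fold change 3.34, SE 0.13) and the LPS libraries 157-fold higher (7.29, SE 0.12). Even so, Cop1 KO reached only 6.47% of the LPS level of this gene.

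Ifi205, also called D3, had the largest fold change with LPS. Counts were 29 and 41 in untreated wild type, 225 and 240 in Cop1 KO, and 19806 and 18519 with LPS. Levels were 0.483 and 0.641 nRPKM, 4.64 and 4.875, and 520 and 526. With LPS it was 823-fold higher than in untreated cells (log2 fold change 9.69, SE 0.15), and in Cop1 KO it was 7.67-fold higher (2.94, SE 0.16). Cop1 KO thus stood at 0.932% of the LPS level, the lowest share among the 9 members for which it could be computed. Of its 50-base windows, 49.5% also occur in Ifi211.

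Ifi208, a pyrin-domain member formerly named Pydc3, was barely detected. It had 0 counts in both untreated wild-type libraries, 0 and 1 in Cop1 KO, and 23 and 36 with LPS. Against a floor of 3 counts over the untreated group, the LPS libraries were 29.7-fold higher by the observed counts, with a lower 95% counting limit of 22.6. LPS exceeded Cop1 KO by a ratio of 76.8 (95% counting interval 13.3 to 3084). No fold between Cop1 KO and untreated wild type can be given, and these limits cover counting error only.

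**Figure D3:**
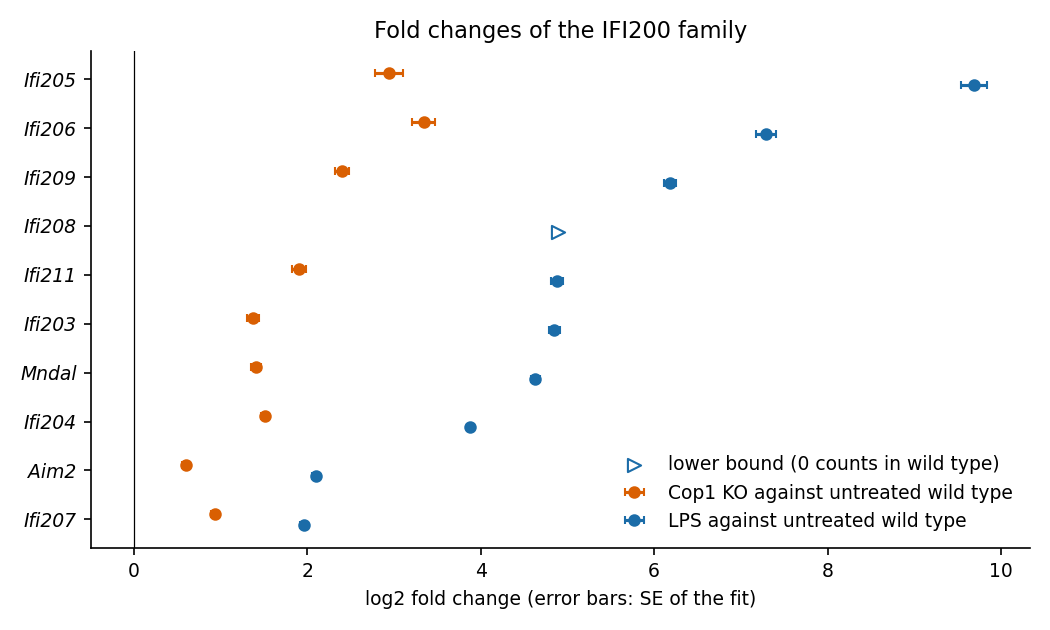
Log2 fold change of each member against untreated wild type, from the edgeR fit. Error bars are the SE, and the open triangle, labelled lower bound, is Ifi208 with LPS set against a floor of 3 counts. LPS values run from 1.96 (Ifi207) to 9.69 (Ifi205) and Cop1 KO values from 0.60 (Aim2) to 3.34 (Ifi206).

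The order of the members by nRPKM differed between groups. In untreated wild type it ran Ifi207, Ifi204, Mndal, Aim2, Ifi211, Ifi203, Ifi209, Ifi205, Ifi206 and Ifi208, and only Ifi205 and Ifi206 had overlapping ranges as neighbours. In Cop1 KO the first 3 places were the same, then came Ifi209, Ifi211, Aim2, Ifi206, Ifi203, Ifi205 and Ifi208. There the ranges of Ifi209 and Ifi211 overlapped, as did those of Ifi206 and Ifi203. With LPS, Ifi205 came first, followed by Ifi204, Ifi209, Ifi207, Mndal, Ifi206, Ifi211, Ifi203, Aim2 and Ifi208, with overlap between Ifi207 and Mndal. The ranges are over 2 libraries each.

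The make-up of the family's RNA shifted accordingly, with the same limit from shared sequence on the share of each member. Ifi207 gave 49.4% and 49.1% of the summed family nRPKM in untreated wild type, 38.7% and 37.2% in Cop1 KO, and 9.05% and 9.49% with LPS. Ifi205 gave 0.778% and 1.03%, 2.88% and 2.77%, and 36.9% and 35.8%. Ifi204 held 24.5% to 28.9% in the untreated groups and 17.8% to 18% with LPS. Mndal kept close to the same share throughout, from 7.18% to 8.78%. The share of Aim2 dropped from 6.48% and 6.97% to 4.2% and 4.02% in Cop1 KO and 1.38% and 1.41% with LPS.

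**Figure D4:**
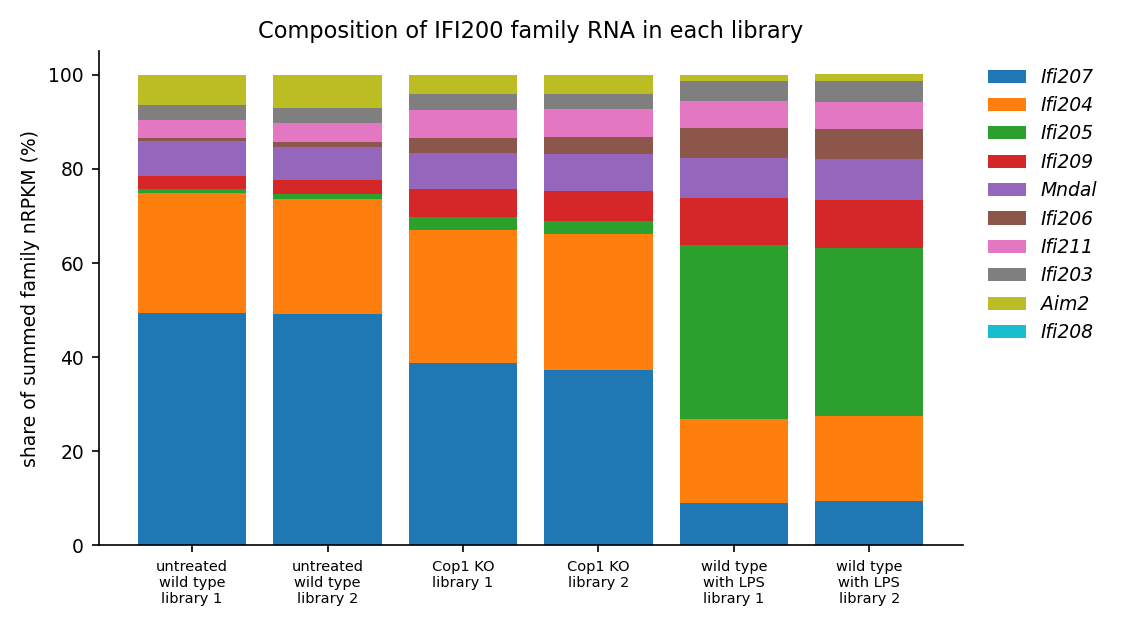
Share of each member in the summed family nRPKM of each of the 6 libraries, in percent; each bar is a library. Ifi207 and Ifi204 fill most of the bar in untreated wild type and Cop1 KO, and Ifi205 takes 36.9% and 35.8% in the LPS libraries.

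Other genes of the same cluster were read in the same way. Ifi213 rose by 2.25 on the log2 scale in Cop1 KO (SE 0.25, edgeR adjusted p = 3.8e-13) and by 7.03 with LPS (SE 0.22, adjusted p = 1.7e-47). The pseudogene Ifi203-ps rose by 2.12 (adjusted p = 1.2e-11) and 5.57 (adjusted p = 6.5e-38), but 24.3% of its 50-base windows also occur in Ifi203. Ifi214 had 1 and 2 counts in untreated wild type, 5 and 5 in Cop1 KO (not called, adjusted p = 0.061) and 197 and 235 with LPS (adjusted p = 3.1e-27). It passed the low-count filter only through the LPS libraries. Ifi202b, whose product p202 lacks the pyrin domain and inhibits AIM2 in mice, had 0 and 0 counts, 1 and 0, and 7 and 5, and was too low to be tested. Of the 5 nearest annotated protein-coding neighbours on each side of the cluster, 6 had no count in any library: Fcer1a, Olfr418, Mptx2, Olfr430, Olfr429 and Olfr427. Cadm3, whose span overlaps that of Aim2, had 170 and 178 counts in untreated wild type, 8 and 13 in Cop1 KO, and 131 and 101 with LPS. Next to Ifi205, Olfr433 had 0 and 0 counts, 2 and 2, and 17 and 9 in the same order, and Olfr432 had 0 in the first 4 libraries and 4 and 6 with LPS. Ackr1 had 6 and 9, 0 and 0, and 4 and 2. No fold or test is given for these 3 genes.

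The adaptor, enzymes and cytokines that act with AIM2 were read next. This list and those that follow were chosen with earlier results of these data known. Their counts stand beside 28.1% of all genes called higher and 30.3% lower in Cop1 KO, and 30.2% and 43.4% with LPS. Some listed genes passed the low-count filter only through the LPS libraries, and nothing is read from their rise with LPS. Of 15 genes of the inflammasome and pyroptosis list, 11 rose in Cop1 KO, none fell and 4 did not pass the test, with a median log2 fold change of 0.48. With LPS 12 rose and 2 fell (median 1.99), and Naip5 did not pass. Pycard, the adaptor ASC, was at 11.8 nRPKM in both untreated libraries and 13 and 13.2 in Cop1 KO, a log2 difference of 0.02 (edgeR adjusted p = 0.84). With LPS it was higher by 0.22 (adjusted p = 0.0021). This difference was 0.15 without the first LPS library, and its direction turned to -0.34 when libraries were scaled by size only. Casp1 rose by 0.22 in Cop1 KO (adjusted p = 1.1e-05) and 2.46 with LPS (adjusted p = 4.8e-48). Its Cop1 KO call is lost under library-size scaling, at 0.03.

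The pore-forming protein gasdermin D (Gsdmd) rose by 0.66 in Cop1 KO (edgeR adjusted p = 4.3e-19) and 1.99 with LPS (adjusted p = 3e-42), and Casp4, which encodes the LPS-sensing caspase-11 of mice, by 0.85 (adjusted p = 5.5e-14) and 4.69 (adjusted p = 9.8e-54). The sensor Nlrp3 went from 5.17 and 5.11 nRPKM to 11.1 and 11.4 in Cop1 KO and 241.5 and 240.4 with LPS, where it rose by 5.39 on the log2 scale (adjusted p = 1.7e-63). The cytokine substrates were far apart between the 2 conditions. Il1b was at 2.44 and 3.05 nRPKM in untreated wild type, 4.33 and 5.03 in Cop1 KO, and 2073 and 2065 with LPS. Il18 was at 2.18 and 2.6, 3.73 and 3.575, and 48.45 and 49.27 nRPKM. Nlrp1b went opposite ways, rising by 0.57 in Cop1 KO (adjusted p = 9.4e-09) and falling with LPS (log2 change -2.49, adjusted p = 9.6e-25). Cop1 KO and LPS differed for it by 3.05 (adjusted p = 9.7e-30).

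Genes of cytosolic DNA sensing and DNA removal rose in 12 of 14 cases in Cop1 KO, none fell, and the median was 0.46. With LPS 12 rose and 1 fell (median 1.55), the one that fell being Dnase2a, a lysosomal DNase, by 1.82 on the log2 scale (edgeR adjusted p = 1.9e-36). Cgas, the enzyme that makes the STING ligand, rose by 0.48 (adjusted p = 2.4e-05) and 1.78 (adjusted p = 3.9e-25). Sting1 rose by 0.14 in Cop1 KO (adjusted p = 0.022), a call that is lost without the first or the second untreated library (adjusted p = 0.077 and 0.1) or the second Cop1 KO library (adjusted p = 0.13), and whose direction turned to -0.06 under library-size scaling. Under that scaling Sting1 did not pass the test (adjusted p = 0.36). Zbp1, a sensor of Z-form nucleic acid, rose by 2.14 (adjusted p = 1.1e-35) and the cytosolic DNase Trex1 by 1.60 (adjusted p = 9.4e-33) in Cop1 KO. With LPS they rose by 5.96 and 3.96.

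All 13 genes of type I interferon signalling rose in Cop1 KO (median log2 fold change 1.09) and all 13 rose with LPS (median 3.36). Ifnb1, the interferon-β gene, had 0 counts in untreated wild type, 12 in the 2 Cop1 KO libraries together and 587 in the LPS libraries. Ifnb1 passed the low-count filter only through the LPS libraries, so its rise with LPS was fixed in advance. Against a floor of 3 counts over the untreated group the observed counts are 4.64-fold higher in Cop1 KO (lower 95% counting limit 2.4) and 295-fold higher with LPS (272). Irf7, an interferon-induced transcription factor, rose by 2.40 in Cop1 KO (edgeR adjusted p = 5.4e-46) and 5.80 with LPS (adjusted p = 1.4e-65). Stat2, a transcription factor of the same pathway, rose by 1.79 and 3.74, and Usp18, which restrains interferon receptor signalling, by 2.04 and 6.98. All of these passed the test.

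All 14 antiviral IFIT and OAS genes, another set induced by type I interferon, rose in Cop1 KO, with a median of 1.83, and all 14 rose with LPS, with a median of 5.02. Ifit3 rose by 2.55 in Cop1 KO (edgeR adjusted p = 3.3e-44) and 6.40 with LPS (adjusted p = 4.4e-66), and Oas1c had the smallest rises, 0.82 and 1.52. Among the guanylate-binding and immunity-related GTPases, 12 of 18 rose in Cop1 KO and all 18 rose with LPS (median of fitted values 7.79). Gbp2b, Gbp10, Gbp11 and Tgtp1 had 0 to 2 counts in every library without LPS. They passed the low-count filter only through the LPS libraries, so their rise with LPS was fixed in advance. All of them are among the genes not called in Cop1 KO. Gbp5 rose by 1.52 (adjusted p = 1.1e-17) and 9.79 (adjusted p = 1.7e-69). The lists were not compared by a test.

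Set against the LPS level of the same gene, Cop1 KO reached a median of 10.7% over the 9 family members with a fold, 10.9% over the 14 IFIT and OAS genes, and 1.58% over the 15 GTPases with a fold. The range within the family was 0.932% to 49.1%, with Ifi207 (49.1%), Aim2 (35.3%) and Ifi204 (19.2%) at the top. Mndal stood at 10.7%, Ifi203 at 9%, Ifi209 at 7.31% and Ifi206 at 6.47%. None of these genes was higher in Cop1 KO than with LPS.

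**Figure D5:**
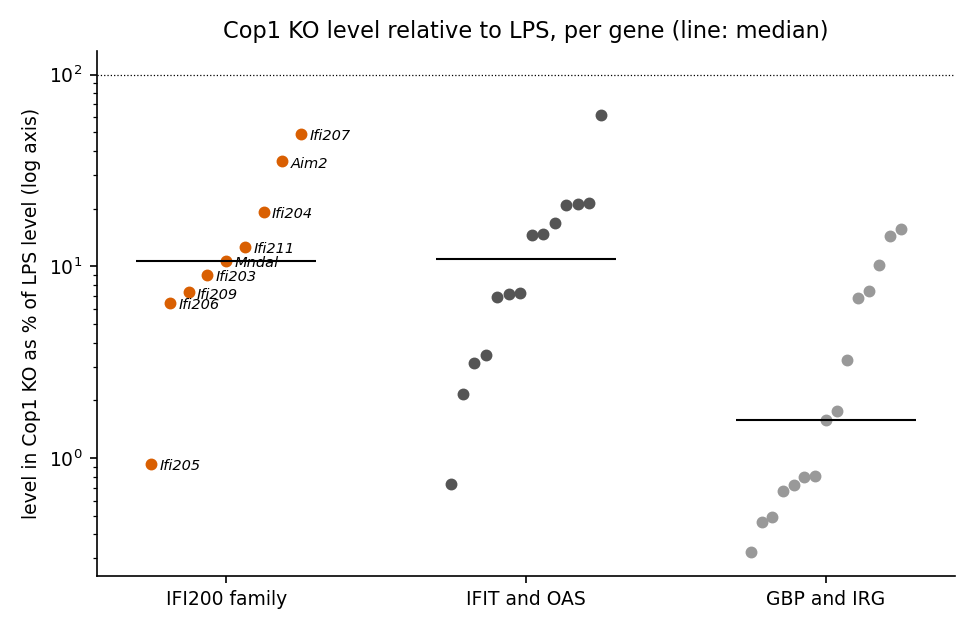
Level in Cop1 KO as a percentage of the level with LPS, on a log axis, for each gene of 3 lists; points are genes, bars are list medians and the dotted line marks equal levels. Family medians of 10.7% and IFIT and OAS medians of 10.9% lie above the GBP and IRG median of 1.58%, and Ifi205 is the lowest family member at 0.932%.

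A list of 11 literature partners and targets of p202 and p204 showed no shared direction in Cop1 KO, with 3 higher, 2 lower and 6 not passing (median 0.06). With LPS 9 of the 11 were lower and none was higher (median -0.61), where 43.4% of all genes were called lower and 30.2% higher.

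Several genes outside the family had nearly the same pair of changes as its members. Among 10377 genes averaging 5 CPM or more, the pair nearest to the median of the 9 members with a fold (1.51 in Cop1 KO, 4.85 with LPS, in log2) belonged to Tap1, the peptide transporter of antigen presentation, at 1.49 and 4.99, a distance of 0.14. Icosl, the costimulatory gene Cd86, and Slfn8 followed at distances of 0.26, 0.33 and 0.36. With the fitted value of Ifi208 included, which rests on 1 count in Cop1 KO, the median pair was 1.70 and 4.86 and Slfn8 came first at 0.19. Oasl2 and Phf11d were among the 10 nearest either way. The likeness is over 3 groups of 2 libraries and is a description.

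Individual members had different nearest genes. Spsb1 was nearest to Aim2 (distance 0.03), Stard3 to Ifi207 (0.05), Dhx58 to Ifi204 (0.08), Irgm1 to Mndal (0.15) and Icosl to Ifi203 (0.14). The pairs of Ifi206 and Ifi205 were more isolated, with the nearest genes Mx1 at a distance of 0.85 and Tnfsf15 at 0.53.

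The cell-type markers given at the start moved with the same comparisons as the family. In Cop1 KO 9 of 10 astrocyte markers and all 8 neuron markers fell (median log2 changes -3.77 and -4.06), and 8 of 10 microglia markers rose (median 0.48, range 0.14 to 0.89). Of the tested markers, 6 of 7 of the oligodendrocyte lineage fell (median -2.77), while 5 of 5 of fibroblasts (median 1.68) and 3 of 4 of endothelium (median 0.92) rose. With every library scaled to those microglia markers, 8 members were still higher in Cop1 KO, by 0.30 (Ifi207) to 2.71 (Ifi206), with Ifi203 at 0.74, Mndal at 0.78, Ifi211 at 1.26, Ifi209 at 1.77 and Ifi205 at 2.31. The markers themselves ranged as widely as 0.14 to 0.89, so the scale is approximate. Because it is a sum of counts, abundant markers weigh most. Csf1r, with the most counts in untreated wild type and Cop1 KO, changed by 0.89. P2ry12 and Tmem119, with the fewest, changed by 0.14 each. The part of the cell mixture in the family's values was not tested beyond this scaling. With LPS, 3 microglia markers rose and 6 fell, among them Cx3cr1 (log2 change -3.97, edgeR adjusted p = 7.4e-55). Of the astrocyte markers 5 of 10 rose with LPS and 1 fell (median 0.17), and of 8 neuron markers 2 rose, 2 fell and 4 did not pass (median -0.22). All 4 tested endothelial markers rose with LPS (median 1.89), as did 3 of 5 of fibroblasts (median 0.57).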

How the data were processed

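Per the labels' protocols, libraries of polyadenylated RNA came from an unstranded TruSeq kit and were read single-end at 50 bases. Per the submitters' processing notes the authors aligned reads with GSNAP to GRCm38. The annotation and the GSNAP version were not given in the sources used here. Counts deposited by the authors are of uniquely aligned reads per gene model, per the file headers, and the deposited RPKM values (nRPKM) are reads per kilobase scaled for depth and a size factor, per the file headers. Identifiers took names from RefSeq (31049 of 36528) or GENCODE (78), and 5401 had none. Unnamed identifiers held 1.072% to 1.304% of a library's counts.

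The counts entered edgeR 4.0.16 under R 4.3.3 (filterByExpr by group, TMM, glmQLFit and glmQLFTest over all 6 libraries with group means, 3 residual degrees of freedom), which left 15585 genes. The biological coefficient of variation was 2.7% (common dispersion 0.000732). Replicates differed by more than counting noise (chi-square divided by its degrees of freedom 1.598 for untreated wild type, 1.995 for the knockout and 2.568 for LPS). Calls were made at a Benjamini-Hochberg adjusted p below 0.05 over all genes. TMM-scaled CPM and nRPKM differ in scale by group, so ratios of nRPKM run slightly above the fitted folds. A group at 0 counts is set at a floor of 3 counts, with 95% counting limits. Alternatives used DESeq2 1.42.0 and limma 3.58.1 on log2(nRPKM + 1) and log2(nRPKM + 0.1), other scalings, no filter, the 2 groups compared alone, and each library left out.

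All members, Cop1 and genes of the lists could be named, with the 10 genes nearest to the family median (also without Ifi208, added after the data were seen) and the 3 nearest to each member by Euclidean distance of the 2 log2 fold changes. The members and lists were chosen with earlier results of these data known. Promoter windows are from RefSeq (GRCm38.p6), and transcript windows of 50 bases from GENCODE (GRCm38). A gene of the lists is not reported here by name and stays in the counts and medians.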

Additional observations from a re-analysis of the deposited data

How the results depend on the processing

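The counts of members past the threshold (9 higher in Cop1 KO, 10 higher with LPS, 10 lower in Cop1 KO than with LPS) did not move with the other library scalings, tests and filters named here or with any library left out; they were not recounted with the microglia-marker scaling. Since the members were chosen from these values, and the counts of 10 include Ifi208, this is a description and no sign of stability. With each library left out in turn, calls over all genes ranged from 7705 to 9396 in Cop1 KO, 10666 to 11721 with LPS and 11834 to 12445 between them, and calls among related genes from 63 to 67, 80 to 83 and 79 to 80. Scaling moved the split of calls over all genes. Of the genes called in Cop1 KO 48.1% were higher, against 58.4% with median-of-ratios factors, 57.9% with DESeq2, 24.4% with library size only and 63.6% and 62.5% with limma on nRPKM plus 1 and plus 0.1, with the median of all genes at -0.01, 0.08, 0.08, -0.20, 0.07 and 0.11 on the log2 scale. With LPS 41.1% were higher, against 49.6%, 51.1%, 19.9%, 50.9% and 50.9%, with medians of -0.18, -0.04, -0.04, -0.74, -0.01 and -0.02. Between Cop1 KO and LPS 50.2% were higher, against 64.5% with library size only (median 0.40 in place of 0.03). Some values changed sign. Aim2 in Cop1 KO did so with microglia-marker scaling, added after the data were seen (-0.03, near 0). With library size only, Pycard was at -0.17 in Cop1 KO, -0.34 with LPS and 0.17 between them. Sting1, Dnase2a and Casp8 were at -0.06, -0.13 and -0.00 in Cop1 KO, and Naip5 at -0.53 with LPS. Of these, Sting1 and Casp8 lost their call (edgeR adjusted p = 0.36 and 0.96) and were not called lower. In the main fit, Dnase2a and Pycard in Cop1 KO and Naip5 with LPS had not passed. The cause was not tested. No paired analysis was possible because the labels give no replicate numbers. Low counts limit Ifi208, Ifi214 and Ifi202b, and shared sequence limits the levels of Ifi211 and Ifi205.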

Other observations

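Of the 6 windows outside the family that hold the exact element GAAATCGAAA, 3 belong to tested genes. Their log2 changes in Cop1 KO and with LPS were 0.57 and -0.17 for Pnrc1, 0.19 and 3.71 for Parp11, and -0.01 and -0.91 for Serpinb6a. These genes were looked up after the element had been singled out.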
